A study of Danio rerio with 6 samples.

Results

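The genes described here are those that build, trim and sulfate the sugar chains of glycoproteins, glycolipids and proteoglycans, together with the mucins, the heavily O-glycosylated proteins of mucus. They were chosen by gene symbol alone. Taken were all symbols beginning with *galnt*, *st3gal*, *st6gal*, *st8sia*, *b3gnt*, *b3galt*, *b4galt*, *gcnt*, *mgat*, *man1*, *man2*, *gal3st*, *chst*, *ndst*, *hs2st*, *hs3st*, *hs6st*, *ext1*, *ext2*, *extl* or *xylt*, or with *fut* or *muc* and a number. This gave 148 of the 26190 genes in the files, which were sorted by the same symbols into 9 role groups.

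RNA-seq was performed at the 4-somite stage on cells sorted from embryos of the zebrafish line *Tg(krt4:GFP)*, giving 3 GFP-positive and 3 GFP-negative libraries. In this line regulatory sequence of *krt4*, a keratin gene of the embryo's surface, drives GFP, and the labels call the GFP-positive cells periderm, the superficial cell layer also named the enveloping layer (EVL). The GFP-negative cells were sorted from the same kind of embryos, carry the same transgene and hold the remaining cell types as a mixture. The embryos came from 3 independent incrosses and were dissociated as pools, and the deposited design text gives 2000 cells of each population per batch, a number that differs from the study's methods.

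Sugar chains are built step by step, mostly in the Golgi. Mucin-type O-glycans begin when a Galnt enzyme attaches N-acetylgalactosamine to serine or threonine, and the first sugar is then extended, branched and capped with sialic acid, fucose or sulfate. N-glycans are transferred whole to the protein in the endoplasmic reticulum, trimmed by mannosidases and rebuilt by Mgat enzymes, whereas glycosaminoglycans such as heparan and chondroitin sulfate grow from a xylose on a core protein and are then sulfated.

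The libraries held 40584467 to 49679602 estimated counts. The sort was described with marker genes of 10 cell types. These were chosen with earlier results of these data known, and the EVL list includes *krt4*, whose regulatory sequence drives the sorted GFP. Their counts therefore describe the sort and do not test it. *krt4* itself had 2430 ± 144 TPM in GFP-positive and 602 ± 49.5 TPM in GFP-negative libraries (SD, n = 3; TPM is an abundance per length of transcript and per library), so GFP-negative cells were not free of its transcripts. All 12 EVL markers passed the test as higher in GFP-positive cells (rule below), and their summed level was 5636 to 5861 TPM in the GFP-positive libraries, against 868.9 to 964.4 TPM in the GFP-negative libraries. No EVL marker was at 0 in GFP-negative cells; *evpla* was the least abundant, with 2.49 ± 0.347 TPM in GFP-positive and 0.217 ± 0.0833 TPM in GFP-negative libraries. Other cell types moved with GFP status as well. The 3 hatching gland genes (both identifiers of *ctslb*, and *cd63*) were higher, with a summed level of 3456 to 3576 TPM in GFP-positive libraries, against 531.6 to 546.2 TPM in GFP-negative libraries. Of 4 notochord genes 3 were higher (274.9 to 354.4 TPM in GFP-positive libraries, against 81.5 to 85.19 TPM in GFP-negative libraries), while 6 of 7 neural genes were lower (497.6 to 501.4 TPM in GFP-positive libraries, against 915.6 to 932.4 TPM in GFP-negative libraries). Most of the notochord sum was *col2a1a*, with 292 ± 41.0 TPM in GFP-positive and 66.9 ± 3.43 TPM in GFP-negative libraries. The notochord gene *noto* was not called (log2 fold change 0.04). No marker of these 3 lists was at 0 in either population. Of the other lists, basal epidermis had 3 of 4 genes higher, ionocytes 2 of 4 higher and 1 lower, paraxial mesoderm 2 of 5 higher and 3 lower, blood and endothelium 2 of 5 higher and 1 lower, and endoderm and yolk syncytial layer 1 of 3 tested higher each. The part of these cell types in the results below was not tested, and in bulk RNA fewer cells of a type and less RNA per cell cannot be told apart.

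Of the 148 genes, 123 passed edgeR's filter on low counts and were tested. Calls required an adjusted p below 0.05 (edgeR's quasi-likelihood test, Benjamini-Hochberg adjustment over 20944 genes) and a mean above 1 TPM in the population with the higher level. By this rule 34 genes (27.6% of those tested) were higher in GFP-positive cells and 23 (18.7%) were lower, against 24.1% and 25.0% of all genes tested. In either direction 46.3% of the tested members were called, against 49.0% of all genes. Groups of 3 libraries did not overlap in TPM for 69 members (56.1%), against 58.5% of all genes. As a whole, then, the members were called about as often as other genes. Their median log2 fold change, GFP-positive over GFP-negative cells, was 0.08, beside 0.02 over all genes. Their summed level was 1301 ± 104 TPM in GFP-positive cells, against 1345 ± 38.8 TPM in GFP-negative cells (SD, n = 3). Limma on TPM moved the balance of directions over all genes and members alike: of the calls on log2(TPM + 1), 51.0% were higher among the members (26 higher and 25 lower), against 38.9% over all genes, and on log2(TPM + 0.1) 23 members were higher and 23 lower, against 39.1% higher over all genes. In the edgeR test these shares were 59.65% among the members and 49.1% over all genes.

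Large differences were mostly towards GFP-positive cells, among the members as among all genes. At least 2-fold, 14 of the 123 members tested were higher and 1, *b4galt2*, was lower. Of all 20944 genes tested, 1769 (8.45%) were higher and 823 (3.93%) lower by the same limits. Most calls, 42 of 57, were under 2-fold, and so were most of the 10270 calls over all genes. Of the members, 45 stayed below 1 TPM in both populations, and 8 with an adjusted p below the threshold were not called for that reason (*galnt8b.1*, *galnt9*, *b3gnt2a*, *st3gal1l*, *st8sia5*, *fut9d*, *gal3st1b* and *gal3st2*). With each library left out in turn, 41 of the 57 calls were kept in all 6 fits, and the other 16 were lost in 1 to 5 fits. How many calls over all genes were kept in this way was not counted.

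Calls within the role groups ran in different directions, and no difference between groups was tested. The group named O-glycan branching and extension took all *gcnt* and *b3gnt* symbols, and not all of these genes act on O-glycans. Of its 13 genes tested, 7 were higher (53.8%) and 0 lower. These were 2 of 3 *gcnt* and 5 of 10 *b3gnt* genes. Of the 15 *galnt* genes 6 were higher (40%) and 1 lower (6.67%). Sialyltransferases had 3 of 24 higher (12.5%) and 9 lower (37.5%), and sulfotransferases 6 of 30 in each direction (20%). Over all genes tested, 24.1% were higher and 25.0% lower, so the sulfotransferases lay near those shares.

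**Figure D1:**
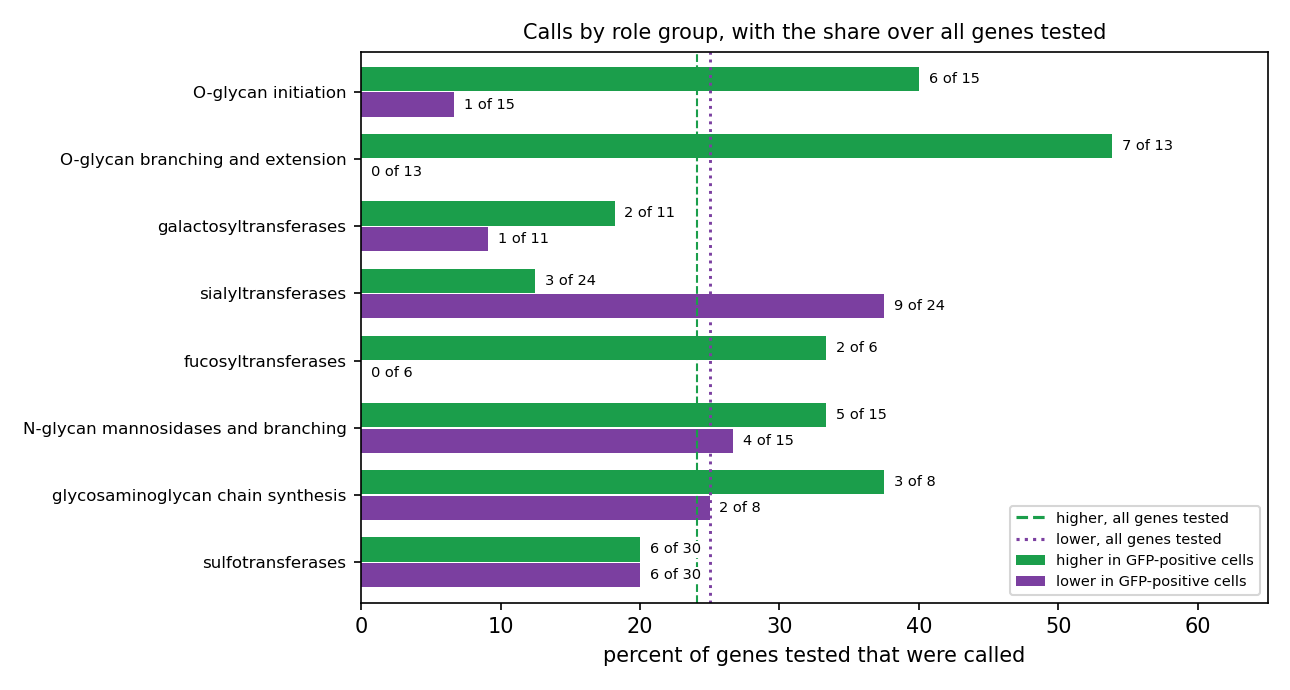
Percent of the genes tested in each role group that were called as higher (green) or lower (purple) in GFP-positive than in GFP-negative cells, with the counts beside the bars; the dashed and dotted lines mark the shares over all 20944 genes tested, 24.1% and 25.0%. Branching and extension enzymes have 7 of 13 higher and 0 lower, and sialyltransferases 3 of 24 higher and 9 lower; the mucins, with 1 gene tested, are left out.

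**Figure D2:**
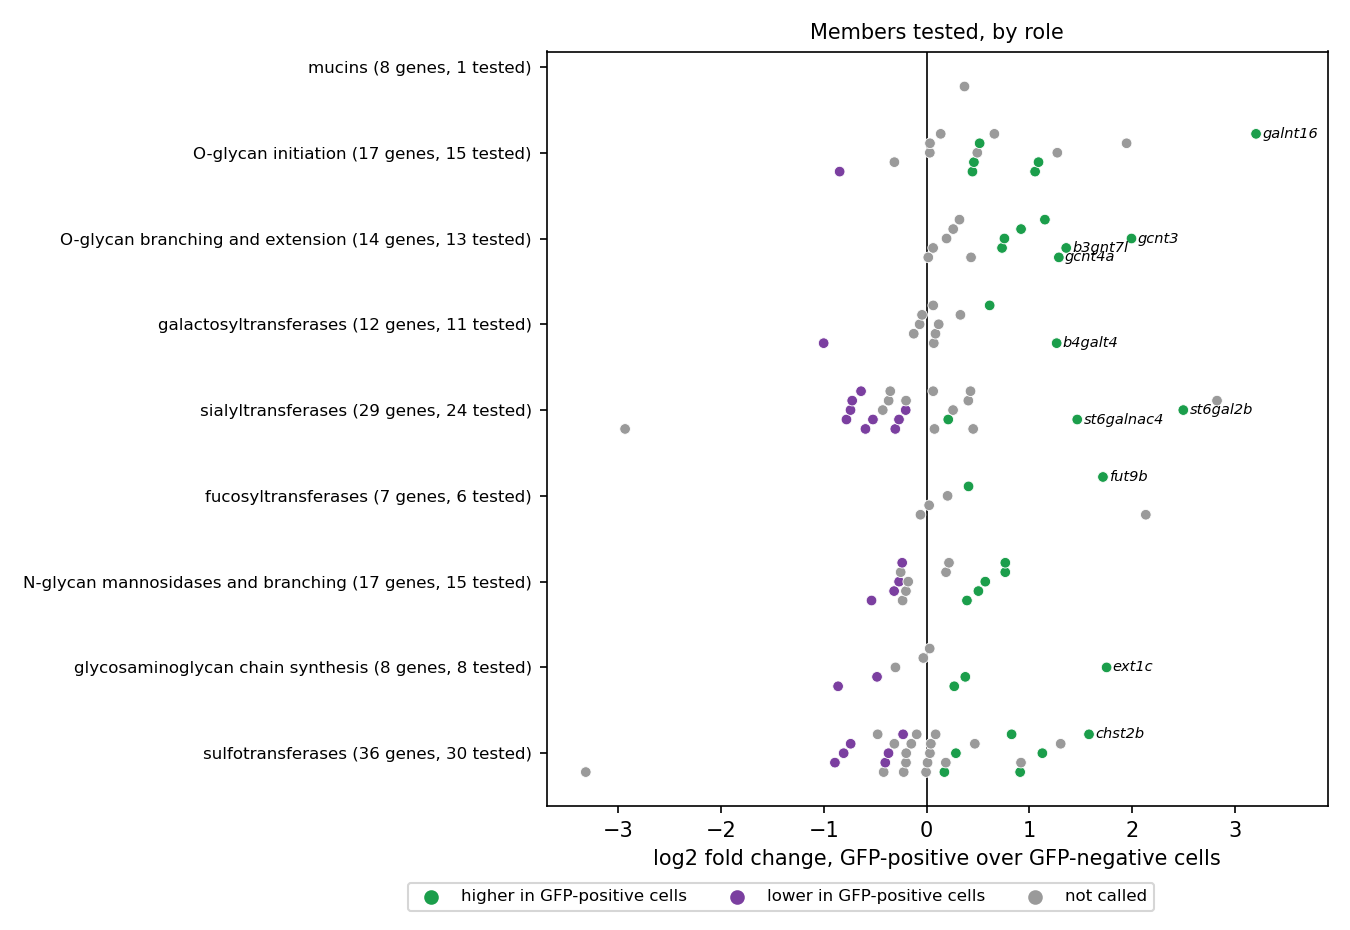
Log2 fold change of each of the 123 members tested, GFP-positive over GFP-negative cells, 1 point per gene in rows by role group and spread vertically for legibility; green and purple points were called as higher and lower, and grey points were not called. *galnt16* lies farthest to the right at 3.205, and the grey points beyond -2.5 or 2.5 are genes under 1 TPM.

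Transcripts of the 8 mucin genes among the members were close to absent in both populations. Any mucin genes listed under upper-case or other symbols are not covered. The highest value of any of the 8 mucin genes in any library was 0.722 TPM. *muc13b* (ENSDARG00000079647), a gene of the transmembrane mucin family, was the only one tested, with 0.556, 0.722 and 0.5703 TPM in GFP-positive cells, against 0.215, 0.632 and 0.72 TPM in GFP-negative cells. Its groups overlapped, with 41 to 47 estimated counts per library in GFP-positive cells and 15 to 47 in GFP-negative cells (fitted log2 fold change 0.36 ± 0.40 SE, adjusted p = 0.474 by edgeR). The gel-forming mucin genes *muc2.2*, *muc5.1*, *muc5.2*, *muc5.3* and the further genes *muc5a*, *muc5f* and *muc13a* had at most 10 estimated counts in any library, so a difference was not detectable at this depth.

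The enzymes that start O-glycans held the widest difference among the members called. A wider fitted difference was that of *gal3st1b* (-3.32), with 0 to 3 estimated counts per GFP-positive library and 12 to 16 per GFP-negative library, and not called because it stayed under 1 TPM in both populations. *galnt16* (ENSDARG00000053190) had 16.7, 18.1 and 21.96 TPM in GFP-positive cells, against 2.44, 2.16 and 2.04 TPM in GFP-negative cells. The lowest GFP-positive library was several times the highest GFP-negative one (fitted log2 fold change 3.205 ± 0.11 SE, adjusted p = 1.27e-11 by edgeR, 9.22-fold), and leaving out single libraries gave 3.13 to 3.30. *galnt6* (ENSDARG00000014386) followed, with 4.87, 6.37 and 7.56 TPM in GFP-positive cells, against 2.97, 3.89 and 2.68 TPM in GFP-negative cells and no overlap (fitted log2 fold change 1.09 ± 0.15 SE, adjusted p = 3.28e-05 by edgeR). *galnt18b* was called with a log2 fold change of 1.05 (edgeR adjusted p = 0.002901) although its TPM values overlapped, at 2.25, 2.51 and 2.43 TPM in GFP-positive cells, against 2.33, 1.86 and 0.851 TPM in GFP-negative cells.

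The abundant *galnt* genes differed little. *galnt7* (log2 fold change 0.51) and *galnt10* (0.44) were higher in GFP-positive cells, as was *galnt12* (0.46), which lost its call without any 1 of the GFP-negative libraries (0.45 to 0.47) or without GFP-positive replicate 1 (0.35). The most abundant of them, *galnt11* (ENSDARG00000063636), an enzyme known in frog embryos to glycosylate the Notch receptor, had 38.7, 40.4 and 48.6 TPM in GFP-positive cells, against 48.3, 54.4 and 52.2 TPM in GFP-negative cells, with overlapping groups (fitted log2 fold change 0.03 ± 0.07 SE, adjusted p = 0.747 by edgeR). Its sign was negative on the TPM scale, at -0.28 by limma on both logs, also without a call. The TPM of *galnt11* was divided differently among its transcripts: a short transcript of 446 bases held 10.6% ± 2.29 of it in GFP-positive cells, against 24.9% ± 1.54 in GFP-negative cells (SD, n = 3), and the transcript of 2396 bases 68.2% ± 2.27 in GFP-positive cells, against 58.3% ± 1.73 in GFP-negative cells. Transcripts were not tested, and the quantification divides reads among similar ones, so these shares are a description only. *galnt1* and *galnt2* were not called either. In the other direction, *galnt8a.2* (ENSDARG00000011869) had 0.686, 0.821 and 0.671 TPM in GFP-positive cells, against 0.929, 1.75 and 1.59 TPM in GFP-negative cells (fitted log2 fold change -0.85 ± 0.27 SE, adjusted p = 0.0178 by edgeR), and this call was lost without GFP-negative replicate 2 (-0.70) or replicate 3 (-0.75). Summed over all 17 genes, *galnt* transcripts stood at 195 ± 24.6 TPM in GFP-positive cells, against 174 ± 7.55 TPM in GFP-negative cells.

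**Figure D3:**
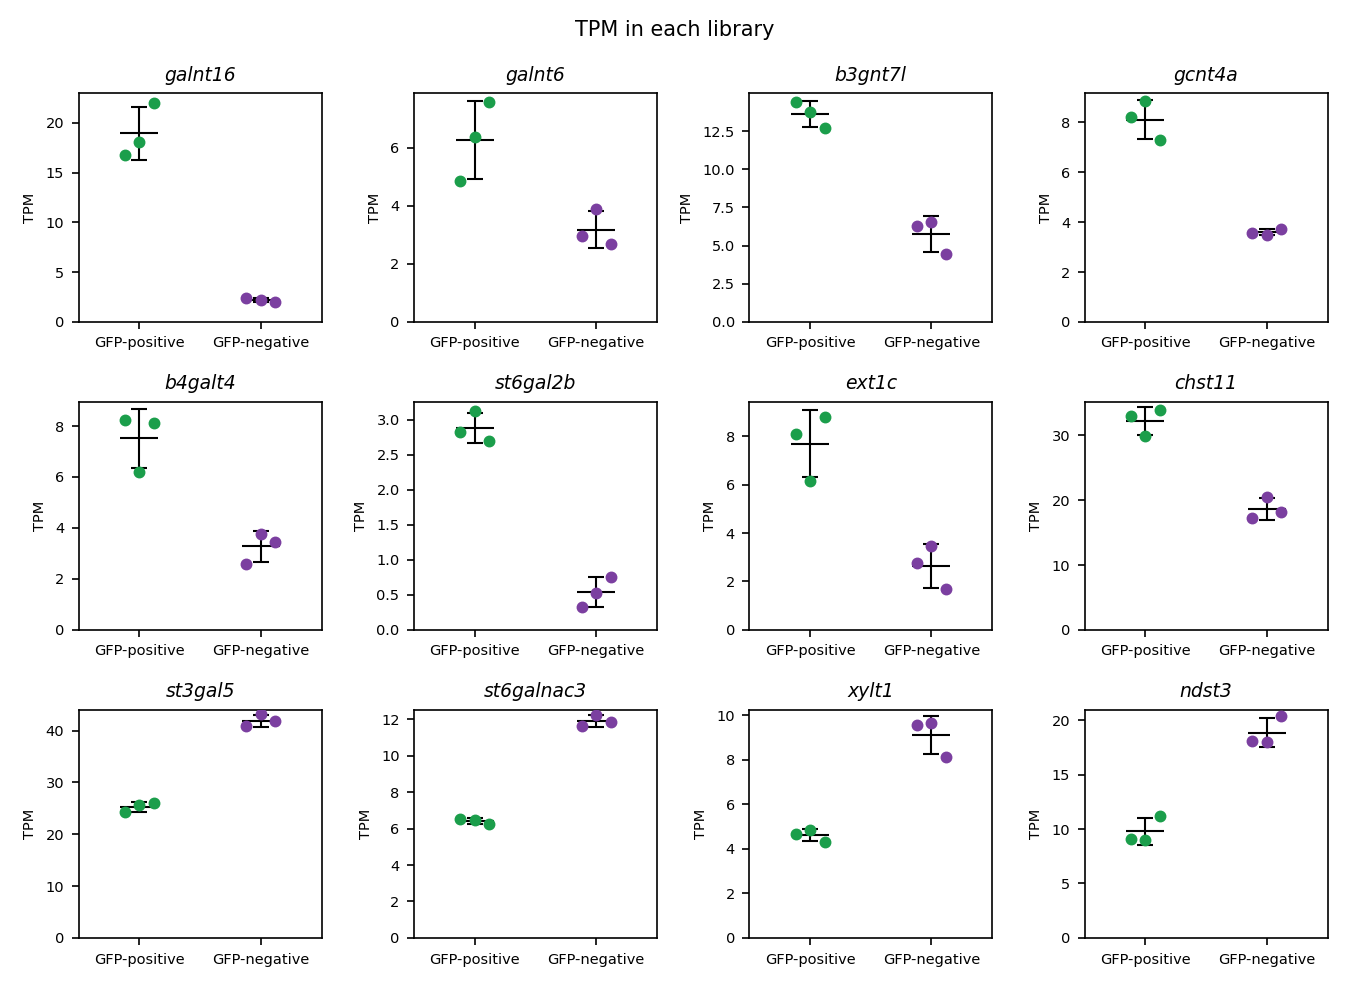
TPM of 12 members in each library, GFP-positive on the left and GFP-negative on the right of each panel; points are libraries, the horizontal lines means and the bars SD (n = 3), and each axis starts at 0. The groups do not overlap in any panel, with the first 8 genes higher and *st3gal5*, *st6galnac3*, *xylt1* and *ndst3* lower in GFP-positive cells.

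Of the 13 branching and extension genes tested, the 7 called as higher made 53.8%, beside 24.1% of all genes. Their summed level was 82.7 ± 2.62 TPM in GFP-positive cells, against 56.0 ± 0.895 TPM in GFP-negative cells (SD, n = 3), and the median log2 fold change of the 13 genes was 0.73. *gcnt3* (ENSDARG00000060471), whose mammalian counterpart makes branched mucin O-glycans, had 1.83, 2.08 and 1.104 TPM in GFP-positive cells, against 0.594, 0.366 and 0.384 TPM in GFP-negative cells (fitted log2 fold change 1.99 ± 0.38 SE, adjusted p = 0.000492 by edgeR). *gcnt4a* (ENSDARG00000035198), another branching enzyme, was more abundant, at 8.21, 8.84 and 7.304 TPM in GFP-positive cells, against 3.55, 3.51 and 3.74 TPM in GFP-negative cells (fitted log2 fold change 1.29 ± 0.13 SE, adjusted p = 1.86e-06 by edgeR). Neither gene had overlapping groups. *gcnt7* was not called (0.06), and *gcnt4b* was not tested. These rises ran alongside those of the EVL and hatching gland markers given above. Of the notochord and the basal epidermis markers 3 of 4 each were higher too. The part of these cells in the rises of *gcnt3* and *gcnt4a* was not tested.

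The B3gnt enzymes add N-acetylglucosamine to galactose and so extend chains of N-acetyllactosamine. *b3gnt7* (ENSDARG00000038489), the most abundant of them, had 16.1, 19.5 and 17.8 TPM in GFP-positive cells, against 12.2, 9.82 and 9.305 TPM in GFP-negative cells (fitted log2 fold change 0.92 ± 0.13 SE, adjusted p = 4.91e-05 by edgeR). Its neighbour in name *b3gnt7l* (ENSDARG00000053133) had 14.4, 13.7 and 12.7 TPM in GFP-positive cells, against 6.26, 6.57 and 4.42 TPM in GFP-negative cells (fitted log2 fold change 1.36 ± 0.14 SE, adjusted p = 2.37e-06 by edgeR). Both genes of the *b3gnt5* pair, whose mammalian counterpart starts the lacto series of glycolipids, were higher as well, *b3gnt5b* (1.15) more than *b3gnt5a* (0.76), each without overlap. *b3gnt9* was the fifth of this family (0.73), a call lost without GFP-negative replicate 3 (0.62) or GFP-positive replicate 1 (0.67). *b3gnt2b*, *b3gnt2l*, *b3gnt3* and *b3gntl1* were not called, with log2 fold changes of 0.02 to 0.32. *b3gnt2a* (0.43) was left uncalled only because it stayed under 1 TPM.

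The galactosyltransferases were mixed, with 2 of 11 higher (18.2%) and 1 lower (9.09%), beside 24.1% and 25.0% of all genes. Their median log2 fold change was 0.07, beside 0.02 over all genes. *b4galt4* (ENSDARG00000104042) had 8.22, 6.19 and 8.12 TPM in GFP-positive cells, against 2.596, 3.77 and 3.47 TPM in GFP-negative cells (fitted log2 fold change 1.26 ± 0.12 SE, adjusted p = 9.87e-07 by edgeR). *b4galt1l* was higher by less, with 48.9 ± 3.8 TPM in GFP-positive and 34.4 ± 1.08 TPM in GFP-negative libraries (log2 fold change 0.61, edgeR adjusted p = 3.71e-06). *b4galt2* (ENSDARG00000077994) had 1.34, 1.38 and 1.68 TPM in GFP-positive cells, against 3.14, 4.03 and 2.53 TPM in GFP-negative cells, with every GFP-positive library below every GFP-negative one (fitted log2 fold change -1.003 ± 0.22 SE, adjusted p = 0.00131 by edgeR). The most abundant of this group was *b4galt6*, named after a mammalian lactosylceramide synthase but listed as *B4GALT5* in a gene name table. It had 62.4 ± 6.0 TPM in GFP-positive and 71.4 ± 4.65 TPM in GFP-negative libraries, with overlapping groups and no call (log2 fold change -0.07). *b4galt7* and *b3galt6*, which build the linker of glycosaminoglycans, were not called (0.07 and -0.13), and neither was any other *b3galt* gene tested.

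Sialyltransferases cap chains with sialic acid. Their summed level was lower in the GFP-positive libraries, at 181.2, 179.7 and 195.8 TPM, against 237.6, 244.5 and 242.2 TPM in the GFP-negative libraries, and their median log2 fold change was -0.24. *st3gal5* (ENSDARG00000037556), the most abundant of them and in mammals the synthase of the ganglioside GM3, had 24.2, 25.6 and 26.01 TPM in GFP-positive cells, against 40.8, 43.1 and 41.8 TPM in GFP-negative cells (fitted log2 fold change -0.60 ± 0.06 SE, adjusted p = 1.12e-06 by edgeR). *st8sia1*, whose mammalian counterpart extends that ganglioside, was also lower (-0.31, edgeR adjusted p = 0.00242). *st8sia2* (ENSDARG00000018788), a polysialyltransferase known for modifying the neural cell adhesion molecule, had 8.34, 8.71 and 8.84 TPM in GFP-positive cells, against 14.4, 13.9 and 15.4 TPM in GFP-negative cells (fitted log2 fold change -0.64 ± 0.09 SE, adjusted p = 2.57e-05 by edgeR). None of these groups overlapped. The second polysialyltransferase gene, *st8sia4*, had 2.54 ± 0.0749 TPM in GFP-positive and 2.503 ± 0.508 TPM in GFP-negative libraries and no call (0.08).

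Of the other sialyltransferases, *st6galnac3* (ENSDARG00000058473) had 6.53, 6.45 and 6.23 TPM in GFP-positive cells, against 11.6, 12.2 and 11.9 TPM in GFP-negative cells (fitted log2 fold change -0.78 ± 0.11 SE, adjusted p = 2.38e-05 by edgeR). *st3gal3b* (-0.74), *st6gal2a* (-0.73), *st3gal2* (-0.52), *st8sia6* (-0.27) and *st6galnac* (-0.20) were lower too. The calls of *st8sia6* and *st6galnac* were lost without GFP-negative replicate 2 (-0.2004 for *st8sia6*, -0.198 for *st6galnac*) or GFP-positive replicate 2 (-0.22 for *st8sia6*, -0.17 for *st6galnac*). These falls ran alongside the lower level of 6 of the 7 neural markers given above. Of the 5 paraxial mesoderm markers 3 were lower as well and 2 higher. The part of these cells in the falls was not tested.

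Against this direction, *st6gal2b* (ENSDARG00000088515), a gene for an enzyme that in mammals sialylates N-acetyllactosamine ends, had 2.82, 3.12 and 2.69 TPM in GFP-positive cells, against 0.331, 0.524 and 0.756 TPM in GFP-negative cells (fitted log2 fold change 2.497 ± 0.26 SE, adjusted p = 1.92e-06 by edgeR, 5.64-fold). Its groups were widely separated at a low level. *st6galnac4* (ENSDARG00000100804) had 1.23, 0.967 and 1.46 TPM in GFP-positive cells, against 0.942, 0.25 and 0.181 TPM in GFP-negative cells, so the GFP-positive library lowest in it lay just above GFP-negative replicate 1 (fitted log2 fold change 1.46 ± 0.56 SE, adjusted p = 0.0408 by edgeR). That library decided the value: without it the log2 fold change was 2.57, and with it the call was lost on leaving out any other single library (1.08 to 1.60). *st3gal3a* was the third gene called as higher (0.21).

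Among the fucosyltransferases 2 of 6 genes tested were higher (33.3%) and 0 lower, beside 24.1% and 25.0% of all genes. *fut9b* (ENSDARG00000067524), named after the mammalian enzyme that makes Lewis x, had 2.07, 2.06 and 1.83 TPM in GFP-positive cells, against 0.816, 0.5897 and 0.554 TPM in GFP-negative cells (fitted log2 fold change 1.71 ± 0.28 SE, adjusted p = 0.000129 by edgeR). *fut8a* (ENSDARG00000015449), the enzyme of core fucose on N-glycans and the most abundant of the group, had 19.8, 21.3 and 24.6 TPM in GFP-positive cells, against 16.4, 19.4 and 17.9 TPM in GFP-negative cells (fitted log2 fold change 0.41 ± 0.07 SE, adjusted p = 0.000314 by edgeR). Its groups were separated by a narrow margin, and limma on log2(TPM + 1) did not call it (0.27, limma adjusted p = 0.0628). *fut9a*, *fut10* and *fut11* were not called, and *fut9d* (2.13) was left uncalled only because it stayed under 1 TPM.

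Of the 15 N-glycan enzyme genes tested, 5 (33.3%) were higher, 4 (26.7%) were lower and 6 were not called, beside 24.1% higher and 25.0% lower over all genes, and no call reached 2-fold. *mgat1a* (ENSDARG00000012407), for the enzyme that opens the route to complex N-glycans, had 31.4, 29.8 and 33.3 TPM in GFP-positive cells, against 18.5, 19.5 and 22.3 TPM in GFP-negative cells (fitted log2 fold change 0.76 ± 0.08 SE, adjusted p = 1.57e-06 by edgeR). The trimming mannosidase *man1a1* (0.57), the Golgi mannosidase *man2a1* (0.50) and the lysosomal mannosidase *man2b1* (0.39) were higher by smaller amounts. *man2a2* (ENSDARG00000063101), a second Golgi mannosidase, ran the other way, with 2.88, 3.43 and 3.73 TPM in GFP-positive cells, against 5.16, 4.96 and 5.67 TPM in GFP-negative cells (fitted log2 fold change -0.54 ± 0.09 SE, adjusted p = 0.000178 by edgeR). *man1a2*, the mannosidase gene with the highest level, had 22.9 ± 2.75 TPM in GFP-positive and 29.05 ± 2.74 TPM in GFP-negative libraries and was called as lower (-0.24, edgeR adjusted p = 0.0229), but not without GFP-negative replicate 2 (-0.16), GFP-positive replicate 1 (-0.20) or GFP-positive replicate 2 (-0.23). *mgat2*, *mgat4a*, *mgat4b* and *mgat5* were not called, with log2 fold changes of -0.25 to 0.22.

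All 8 genes of glycosaminoglycan chain synthesis were tested. Of these 3 were higher (37.5%) and 2 lower (25%), beside 24.1% and 25.0% of all genes tested. The xylosyltransferases, which place the first sugar, were both lower. *xylt1* (ENSDARG00000061248) had 4.68, 4.85 and 4.3 TPM in GFP-positive cells, against 9.57, 9.64 and 8.12 TPM in GFP-negative cells (fitted log2 fold change -0.86 ± 0.11 SE, adjusted p = 1.26e-05 by edgeR), and *xylt2* had 1.38, 1.73 and 1.86 TPM in GFP-positive cells, against 2.44, 2.74 and 2.35 TPM in GFP-negative cells (fitted log2 fold change -0.48 ± 0.12 SE, adjusted p = 0.00405 by edgeR). No GFP-positive library reached the level of a GFP-negative one in either gene.

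The Ext polymerases of heparan sulfate were higher or not called. *ext1c* (ENSDARG00000035649) had 8.11, 6.16 and 8.81 TPM in GFP-positive cells, against 2.77, 3.48 and 1.68 TPM in GFP-negative cells (fitted log2 fold change 1.75 ± 0.22 SE, adjusted p = 1.20e-05 by edgeR). *ext1a*, the most abundant *ext1* gene, had 39.4 ± 2.64 TPM in GFP-positive and 33.1 ± 1.36 TPM in GFP-negative libraries (log2 fold change 0.38, edgeR adjusted p = 4.76e-05). *ext2*, whose product works in a complex with that of *ext1*, had 35.2 ± 4.71 TPM in GFP-positive and 37.4 ± 0.716 TPM in GFP-negative libraries, with overlapping groups and no call (0.03). *extl3* was called at 0.27, with overlapping TPM and a call lost without GFP-negative replicate 2 (0.26) or 3 (0.18) or GFP-positive replicate 2 (0.26) or 3 (0.23).

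Sulfotransferases were the largest role group, with 36 genes. Those of chondroitin and keratan sulfate were split by gene. *chst11* (ENSDARG00000034375), a chondroitin sulfotransferase, had 32.98, 29.8 and 33.8 TPM in GFP-positive cells, against 17.2, 20.5 and 18.1 TPM in GFP-negative cells (fitted log2 fold change 0.91 ± 0.08 SE, adjusted p = 1.95e-07 by edgeR). *chst2b* (ENSDARG00000058585), for an enzyme that sulfates N-acetylglucosamine, had 3.28, 3.16 and 2.71 TPM in GFP-positive cells, against 0.675, 1.16 and 1.51 TPM in GFP-negative cells (fitted log2 fold change 1.58 ± 0.23 SE, adjusted p = 5.25e-05 by edgeR), and its partner *chst2a* was higher by 0.28. *chst3b* was higher too (0.83), a call lost without GFP-negative replicate 1 (0.66) or GFP-positive replicate 2 (0.69). *chst1* (ENSDARG00000088593), in mammals a keratan sulfate sulfotransferase, had 1.92, 2.33 and 1.84 TPM in GFP-positive cells, against 3.58, 4.095 and 4.73 TPM in GFP-negative cells (fitted log2 fold change -0.89 ± 0.15 SE, adjusted p = 0.000186 by edgeR). *chst14*, the dermatan sulfotransferase, was lower as well (-0.40, edgeR adjusted p = 0.00487), and so was *chst10*, the sulfotransferase of the HNK-1 epitope (-0.23), whose call was lost without replicate 1 or 3 of either population (-0.23 to -0.197). Of the genes that sulfate galactose, *gal3st4* was lower, with 2.89 ± 0.397 TPM in GFP-positive and 5.24 ± 0.177 TPM in GFP-negative libraries (log2 fold change -0.74, edgeR adjusted p = 1.23e-05). *gal3st2* (1.30) and *gal3st1b* (-3.32) were left uncalled only because they stayed under 1 TPM. *gal3st1a* (-0.42) and *gal3st3* (-0.20) were not called.

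For heparan sulfate, *ndst3* (ENSDARG00000041776), an N-deacetylase and N-sulfotransferase, had 9.102, 9.02 and 11.2 TPM in GFP-positive cells, against 18.1, 18 and 20.4 TPM in GFP-negative cells (fitted log2 fold change -0.81 ± 0.08 SE, adjusted p = 1.50e-06 by edgeR). Its transcript of 3763 bases held 57.2% ± 2.43 of its TPM in GFP-positive cells, against 40.02% ± 3.64 in GFP-negative cells (SD, n = 3), so the fall was wider in the transcript of 3481 bases, which took the rest. These shares are a description too and were not tested. The other *ndst* genes were not called. *hs6st2* (ENSDARG00000012025) was the most abundant of all members, with 90.2, 93.1 and 101 TPM in GFP-positive cells, against 107, 114 and 109 TPM in GFP-negative cells. Its libraries did not overlap in TPM, but the difference in counts was small and not called (fitted log2 fold change -0.10 ± 0.05 SE, adjusted p = 0.114 by edgeR), and no *hs6st* gene tested was called. *hs3st3b1b* was lower (-0.37, edgeR adjusted p = 0.000373).

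Both remaining calls among the heparan sulfotransferases were unstable. *hs3st3l* (ENSDARG00000059903) had 1.41, 1.74 and 0.837 TPM in GFP-positive cells, against 0.414, 0.749 and 0.8104 TPM in GFP-negative cells (fitted log2 fold change 1.13 ± 0.42 SE, adjusted p = 0.0375 by edgeR), and lost its call without GFP-negative replicate 1 (0.88) or 2 (1.21) or GFP-positive replicate 1 (1.05) or 2 (0.88). *hs2st1a* was called as higher by 0.17 from its counts although its TPM was lower, at 31.8 ± 0.898 TPM in GFP-positive and 35.7 ± 1.09 TPM in GFP-negative libraries, and limma on TPM gave -0.16 and -0.17 without a call. The call was also lost without any 1 of the GFP-negative libraries (0.16 to 0.18) or GFP-positive replicate 2 (0.14). It was the only called member whose mean TPM and fitted fold change differed in sign.

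The zebrafish genome keeps many of these genes as pairs with symbols ending in a and b. There were 22 such pairs, 18 with both genes tested. In 4 of the 18 pairs the genes were called in opposite directions, in 2 (*b3gnt5* and *chst2*) both were higher, in 6 only 1 gene was called, and in 6 neither was. Each gene had its own test, and the pairs had none. Pairs of other genes were not counted, so whether opposite calls are more frequent among these pairs than elsewhere was not tested. Reads of closely similar genes can be shared between them by the quantification, so the sum of a pair is more certain than its division.

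**Figure D4:**
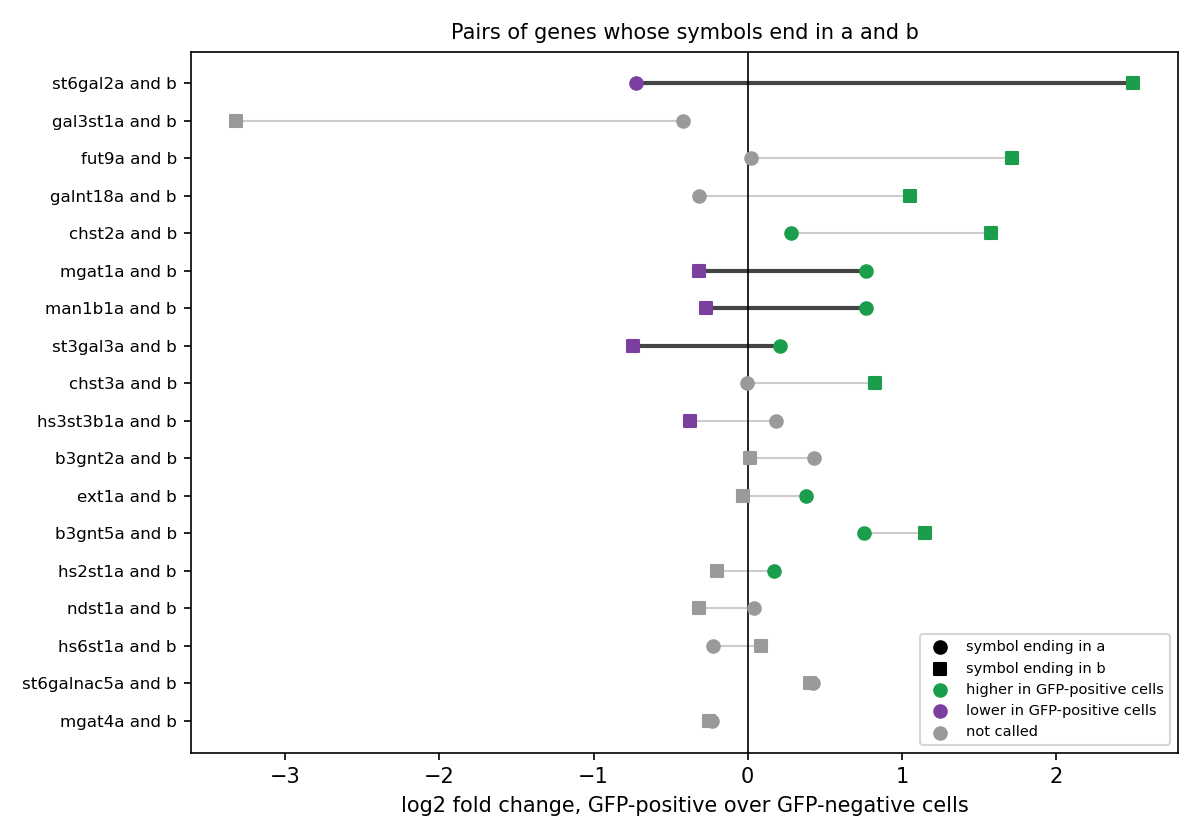
Log2 fold change, GFP-positive over GFP-negative cells, of both genes of the 18 pairs with both genes tested, ordered by the gap between them; circles are symbols ending in a, squares symbols ending in b, green and purple mark genes called as higher and lower, grey genes not called. Dark lines join the 4 pairs called in opposite directions, of which *st6gal2* has the widest gap, from -0.73 to 2.497.

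*st6gal2* showed the widest gap. *st6gal2a* had 4.97, 4.97 and 6.87 TPM in GFP-positive cells, against 11.5, 8.74 and 11.3 TPM in GFP-negative cells (fitted log2 fold change -0.73 ± 0.12 SE, adjusted p = 0.000146 by edgeR), against the rise of *st6gal2b*. The a gene held 65.7% ± 5.44 of the pair's TPM in GFP-positive cells, against 95.1% ± 1.84 in GFP-negative cells (SD, n = 3), and the pair together had 8.48 ± 0.949 TPM in GFP-positive cells, against 11.04 ± 1.55 TPM in GFP-negative cells. In the *mgat1* pair, *mgat1b* was lower, with 3.22, 3.21 and 4.21 TPM in GFP-positive cells, against 4.74, 5.09 and 4.57 TPM in GFP-negative cells (fitted log2 fold change -0.32 ± 0.10 SE, adjusted p = 0.0149 by edgeR), and held the smaller part of a sum of 35.0 ± 2.27 TPM in GFP-positive cells, against 24.9 ± 1.81 TPM in GFP-negative cells. Without GFP-positive replicate 2, *mgat1b* was not called (-0.26).

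*st3gal3b* (ENSDARG00000015252) had 13.3, 14.5 and 13.1 TPM in GFP-positive cells, against 24.4, 17.6 and 19.6 TPM in GFP-negative cells, without overlap (fitted log2 fold change -0.74 ± 0.10 SE, adjusted p = 1.77e-05 by edgeR). *st3gal3a* had 31.3, 29.5 and 32.6 TPM in GFP-positive cells, against 27.2, 30.03 and 28.8 TPM in GFP-negative cells, with overlap (fitted log2 fold change 0.21 ± 0.07 SE, adjusted p = 0.02603 by edgeR). The pair summed to 44.8 ± 0.868 TPM in GFP-positive cells, against 49.2 ± 2.13 TPM in GFP-negative cells. The *man1b1* pair was the least certain: *man1b1a* had 1.54, 0.997 and 1.55 TPM in GFP-positive cells, against 0.833, 1.19 and 0.609 TPM in GFP-negative cells (fitted log2 fold change 0.76 ± 0.26 SE, adjusted p = 0.0208 by edgeR), and *man1b1b* 10.04, 9.06 and 12.6 TPM in GFP-positive cells, against 14.5, 12.9 and 13.2 TPM in GFP-negative cells (fitted log2 fold change -0.27 ± 0.11 SE, adjusted p = 0.0442 by edgeR). Opposite calls in *man1b1* were kept in 1 of the 6 fits with a library left out, that without GFP-positive replicate 3; across the fits that lost a call the log2 fold change of *man1b1a* was 0.56 to 0.74 and that of *man1b1b* -0.29 to -0.196. Those in *st3gal3* were lost without GFP-negative replicate 1 (*st3gal3a* 0.198) or 2 (0.19) or GFP-positive replicate 1 (0.18), and those in *st6gal2* in none.

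Other genes of the same pathways were taken from a list of 114 symbols outside the members, chosen with earlier results of these data known. The list includes *agr1*, which is also an EVL marker. The shares below are therefore a description and no test of these pathways. Of 100 tested, 49 were higher in GFP-positive cells and 14 lower, beside 24.1% and 25.0% of all genes tested, with 12 and 1 at least 2-fold and a median log2 fold change of 0.29. The genes that make the activated sugars and the sulfate donor accounted for 21 of the 49: of 29 tested, 21 were higher and 2 lower, with a median of 0.45, and their summed level was 836 ± 23.9 TPM in GFP-positive cells, against 621 ± 9.55 TPM in GFP-negative cells (SD, n = 3). Along the route to UDP-N-acetylglucosamine, *gfpt2* (1.09), *gnpnat1* (1.24), *pgm3* (0.48) and *uap1* (1.104) were higher, as was *gale*, the epimerase that makes UDP-galactose and UDP-N-acetylgalactosamine, with 39.4, 39.6 and 40.8 TPM in GFP-positive cells, against 19.1, 17.3 and 17.5 TPM in GFP-negative cells (fitted log2 fold change 1.25 ± 0.08 SE, adjusted p = 1.24e-08 by edgeR). Of *gfpt1* on the UDP-N-acetylglucosamine route, the identifier ENSDARG00000086866 was higher (0.67) and ENSDARG00000057465 was not called (0.33). Genes of GDP-sugar synthesis, *gmppab* (1.21), *gmds* (1.04), *pmm2* (0.83), *gmppb* (0.45) and *tsta3* (0.39), were higher too. Others of that synthesis, *gmppaa* (-0.07), *mpi* (-0.14) and *fpgt* (0.28), were not called. *cmasb*, for an enzyme that activates sialic acid, had 1.51, 1.66 and 1.44 TPM in GFP-positive cells, against 0, 0.197 and 0.356 TPM in GFP-negative cells (fitted log2 fold change 3.06 ± 0.73 SE, adjusted p = 0.002795 by edgeR), while *cmasa* (0.24) was higher by less. With 1 of the GFP-negative libraries at 0, the fitted value of *cmasb* depends on the prior count of the fit. The 2 genes called as lower were *uap1l1* (-0.80) and *papss1* (-0.27).

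**Figure D5:**
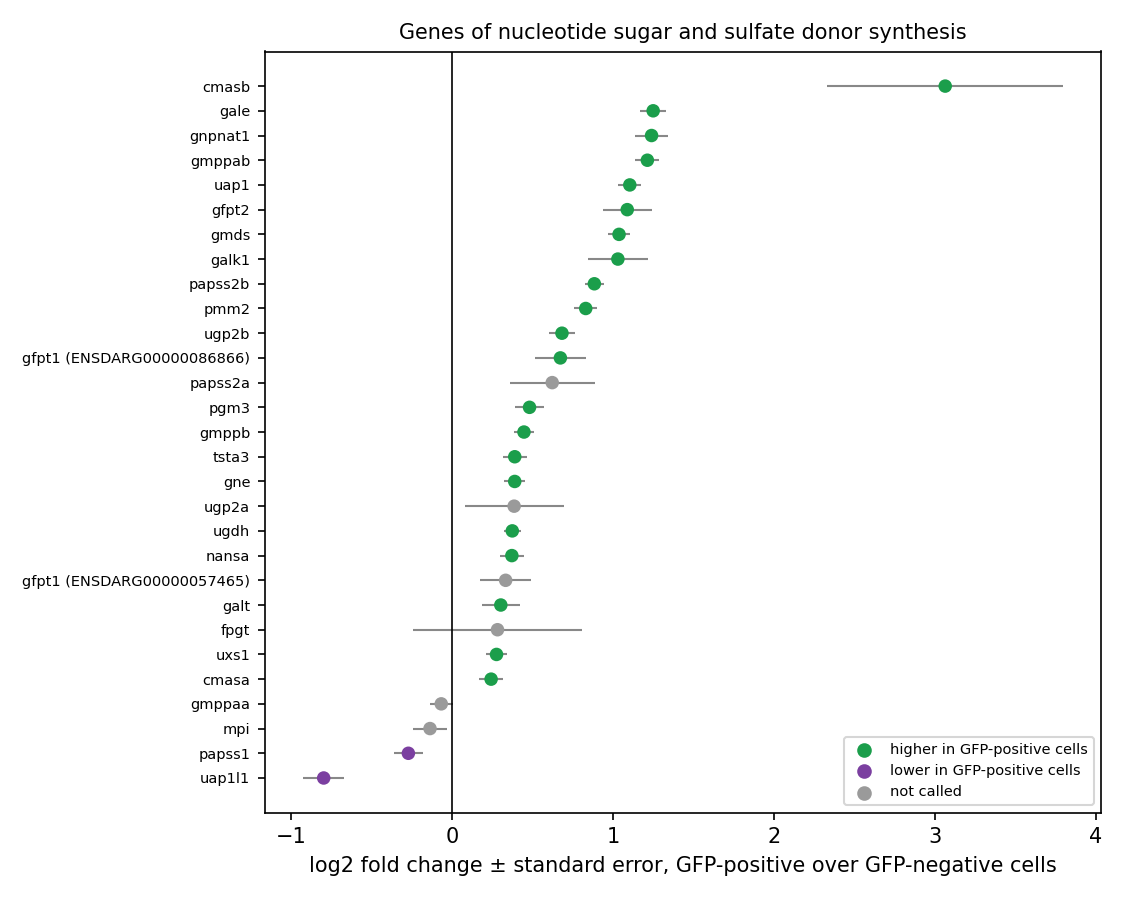
Log2 fold change with its standard error (bars), GFP-positive over GFP-negative cells, of the 29 genes of nucleotide sugar and sulfate donor synthesis; green points passed as higher in GFP-positive cells, purple as lower, and grey points were not called. The 21 green points run from 0.24 to 3.06, and the symbol *gfpt1* belongs to 2 gene identifiers.

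Of 12 *slc35* genes listed as transporters of activated sugars or the sulfate donor, 5 were higher and 3 lower, beside 24.1% and 25.0% of all genes. Not all of the 12 carry sugars into the Golgi. Among the higher genes were *slc35b1* (0.77) and *slc35b2* (0.34), the latter for a transporter of the sulfate donor. *slc35a3a* (ENSDARG00000013222), named after the mammalian transporter of UDP-N-acetylglucosamine, had 1.07, 0.904 and 1.39 TPM in GFP-positive cells, against 6.95, 6.99 and 7.66 TPM in GFP-negative cells (fitted log2 fold change -2.65 ± 0.17 SE, adjusted p = 1.50e-08 by edgeR), the widest fall on the list, and its groups were far apart. *slc35d2* had 8.097, 4.83 and 9.27 TPM in GFP-positive cells, against 18.99, 12.3 and 14 TPM in GFP-negative cells (fitted log2 fold change -0.92 ± 0.29 SE, adjusted p = 0.0155 by edgeR), a call lost without GFP-negative replicate 1 (-0.73) or GFP-positive replicate 2 (-0.70). In the endoplasmic reticulum, 7 of 12 oligosaccharyltransferase and glucosidase genes were higher (58.3%) and 2 lower (16.7%), beside 24.1% and 25.0% of all genes. One of the lower genes was *ganab*, a glucosidase subunit, with 12.3, 11.8 and 17.1 TPM in GFP-positive cells, against 25.8, 27.7 and 29.8 TPM in GFP-negative cells (fitted log2 fold change -0.90 ± 0.10 SE, adjusted p = 3.18e-06 by edgeR).

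Core 1 enzymes extend the first sugar of mucin-type O-glycans with galactose. *c1galt1c1*, the chaperone of the enzyme, had 10.01 ± 0.975 TPM in GFP-positive and 8.69 ± 0.903 TPM in GFP-negative libraries (fitted log2 fold change 0.32 ± 0.09 SE, adjusted p = 0.00984 by edgeR), and was not called without GFP-positive replicate 2 (0.25). *c1galt1b* had 20.1 ± 2.06 TPM in GFP-positive and 20.9 ± 1.26 TPM in GFP-negative libraries and was called from its counts (fitted log2 fold change 0.23 ± 0.08 SE, adjusted p = 0.0296 by edgeR), but lost the call without GFP-negative replicate 2 (0.22) or 3 (0.20) or GFP-positive replicate 2 (0.23) or 3 (0.17). On the TPM scale it turned to -0.058 and -0.061 by limma, without a call. *c1galt1a* was not called (fitted log2 fold change 0.40 ± 0.24 SE, adjusted p = 0.171 by edgeR).

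The protein disulfide isomerases *agr1* and *agr2*, of which the mouse *Agr2* is required for intestinal mucin, were both higher. *agr1* (ENSDARG00000060682) had 101, 92.99 and 92.9 TPM in GFP-positive cells, against 3.1, 2.31 and 1.59 TPM in GFP-negative cells (fitted log2 fold change 5.43 ± 0.16 SE, adjusted p = 2.16e-12 by edgeR), the widest rise called on the list, and it also stands among the 12 EVL markers. *agr2* (ENSDARG00000070480) had 46.1, 43.4 and 43.8 TPM in GFP-positive cells, against 15.2, 14.6 and 13.1 TPM in GFP-negative cells (fitted log2 fold change 1.73 ± 0.10 SE, adjusted p = 2.58e-09 by edgeR). A group taken for O-mannose, O-fucose and O-glucose also held *ogt.1*, *ogt.2* and *eogt*, for enzymes that attach N-acetylglucosamine. It had 3 of 18 higher (16.7%) and 5 lower (27.8%), beside 24.1% and 25.0% of all genes tested. The lower genes included *ogt.1* (-0.46) and *ogt.2* (-0.50), while *eogt* was not called (0.13). Of the Notch-modifying Fringe genes in this group, *rfng* (-0.83) and *lfng* (-0.55) were lower and *mfng* (0.62) was not called. Glycosaminoglycan enzymes outside the members had 6 of 17 higher (35.3%) and 2 lower (11.8%).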

How the data were processed

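RNA was measured in 6 libraries, grouped by the GFP status in the sample labels. Total RNA was amplified as cDNA with the SMART-Seq v4 kit and made into Nextera XT libraries. According to the submitters' processing notes the reads were trimmed with Trimmomatic 0.35 and quantified with kallisto 0.41 against zebrafish cDNA (danRer10); the study's methods give another Trimmomatic version, and the annotation release is not given in the sources used here. The authors deposited, for each of 51286 transcripts and each library, estimated counts, which are not normalized, and TPM values, which are scaled by transcript length and library. A table of the authors' own sleuth comparison (effects, p-values and q-values) was deposited too, and its comparison columns were not used.

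Members were selected by the case-sensitive symbol rule, and role groups, the list of further pathway genes, the markers and the rule for named genes were chosen with earlier results of these data known. That rule took, per role group, the most abundant gene and the largest called changes, all mucins, the 5 largest changes in each direction, opposite pairs, and of the further genes the 3 largest changes in each direction and core 1 enzymes. Genes named beyond it were chosen after their values were seen. Of the 148 identifiers, 140 were in a gene name table, 44 of them under another symbol, and the symbols of the files were kept. Among these, *b4galt6* stood there as *B4GALT5* and *ndst3* as *NDST4*, so which mammalian gene each corresponds to is uncertain.

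Estimated counts were summed per gene and rounded, and the populations were compared by the quasi-likelihood test of edgeR 4.0.16 (R 4.3.3, TMM factors, filterByExpr, no covariate), with p-values of all 20944 genes adjusted by Benjamini-Hochberg. Standard errors (SE) were obtained by dividing the absolute log2 fold change by the root of the F statistic. TPM values were summed per gene. Fitted fold changes rest on counts and can differ from ratios of TPM, which divide by transcript length. At the depths given, 3 counts correspond to 0.0604 to 0.0739 CPM. Kallisto divides reads among similar transcripts, so values of near-identical genes are less certain than their sums. The labels name separate incrosses as the source of the replicates. The procedure was tested on simulated data, with 200 genes changed and the same dispersion for all genes. In the data themselves 10270 genes were called, so the simulation does not test normalization at such a share of changed genes. As alternatives, the comparison was repeated with DESeq2 1.42.0, with RLE factors or library size alone, without the count filter, by limma 3.58.1 on log2(TPM + 1) and log2(TPM + 0.1), with a block for the replicate number, without each library in turn, and for an adjusted p below 0.01, no TPM limit or one of 5, and symbols matched without regard to case.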

Additional observations from a re-analysis of the deposited data

How the results depend on the processing

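Of the 39 named genes that were called, 27 kept their direction and call under every alternative fit, and 12 did not under at least 1. The 6 named genes without a call gained none, and 3 of them (*ext2*, *galnt11* and *muc13b*) changed sign under at least 1. On the TPM scale, limma on log2(TPM + 0.1) moved the median of all genes by -0.11; the median of the members was then -0.015, 0.07 above that of all genes (0.05 above it in the test on counts), and -0.015 on log2(TPM + 1). Without a count filter it was 0.125. On log2(TPM + 1), 4 members were called at least 2-fold, and with a mean above 5 TPM 7 were, with 20 members called as higher, among them 4 of branching and extension. Pairs called in opposite directions numbered 2 under either limma scale, 1 with an adjusted p below 0.01 (*st6gal2*) and 1 above 5 TPM (*st3gal3*). *c1galt1b* turned to -0.058 on log2(TPM + 1) and -0.061 on log2(TPM + 0.1), without a call. The cause of these shifts was not tested. With each library left out in turn, members called as higher numbered 28 to 33, lower 18 to 25, at least 2-fold 11 to 16 and opposite pairs 2 to 4; the median was 0.06 to 0.11. Among the role groups, 6 to 7 branching and extension genes and 5 to 6 *galnt* genes were higher and 7 to 9 sialyltransferases lower, with 19 to 22 nucleotide sugar genes higher and 54 to 64 further pathway genes called in either direction.

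The deposited design text says that each incross gave both populations, but not that a replicate number marks an incross. Deviations of same-numbered libraries from their group means correlated at 0.004, -0.010 and -0.002 over 20944 genes. Those of differently numbered libraries correlated at -0.018 to 0.02. All of these values are near 0, so they cannot decide whether the numbers mark incrosses. The numbers were not taken as pairs in the main test. With the replicate number as a block 33 members were higher, 23 lower, and *hs3st3l* (adjusted p = 0.06) and *c1galt1b* (0.0522, both by edgeR) were not called. Apart from *muc13b*, the mucin genes among the members were too rare for a comparison at this depth.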

Other observations

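The symbol rule was case-sensitive, and 30 further genes listed under upper-case symbols match it only without regard to case. Of these 14 were tested, with 5 higher and 2 lower in GFP-positive cells. This gave 39 higher (28.5%) and 25 lower (18.25%) among 137 genes tested in all, beside 24.1% and 25.0% of all genes.

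The paralogue of *slc35a3a*, *slc35a3b*, a gene chosen here after its values were seen, moved the other way at a much lower level. The mean of *slc35a3a* was 1.12 ± 0.247 TPM in GFP-positive and 7.2 ± 0.399 TPM in GFP-negative libraries (SD, n = 3). That of *slc35a3b* was 0.539 ± 0.3 TPM in GFP-positive and 0.0352 ± 0.0312 TPM in GFP-negative libraries, so its rise in TPM was much smaller. *slc35a3b* (ENSDARG00000020981) had 0.374, 0.885 and 0.357 TPM in GFP-positive cells, against 0.0595, 0 and 0.0461 TPM in GFP-negative cells, without overlap (fitted log2 fold change 4.25 ± 0.78 SE, adjusted p = 0.00035 by edgeR), and was not called because it stayed under 1 TPM. The fitted value of this gene, listed at 0 in 1 of the GFP-negative libraries, depends on the prior count of the fit.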
